A study of Homo sapiens with 12 samples.

Results

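The genes described here encode the immunoproteasome and the aminopeptidases of the endoplasmic reticulum (ER), with the constitutive proteasome subunits they are set against. They were 10 genes of the 27788 symbols in the counts, taken by symbol: the inducible catalytic subunits PSMB8, PSMB9 and PSMB10, the activator subunits PSME1 and PSME2, the aminopeptidases ERAP1 and ERAP2, and the constitutive catalytic subunits PSMB5, PSMB6 and PSMB7. RNA was sequenced from 4 groups of 3 libraries: HCT116 cells with GSTO1 knocked out (KO), wild-type (WT) HCT116 cells, U-87 MG cells with GSTO1 knocked out and wild-type U-87 MG cells. HCT116 is a human colorectal carcinoma line and U-87 MG a human glioblastoma line, and GSTO1 encodes the glutathione transferase omega 1. Per the labels' protocols, lines that carried Cas9 from a lentivirus under blasticidin selection received a tracrRNA with a crRNA against exon 2 of GSTO1 or a control crRNA without a target. KO cells are colonies in which GSTO1 expression was lost, with the mutation read by Sanger sequencing. The labels used here leave unsaid whether the wild-type samples carried Cas9 or the control crRNA, and how many colonies stand behind the KO libraries.

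The proteasome is a barrel of stacked rings that degrades ubiquitinated proteins, with proteolytic activity in its PSMB5, PSMB6 and PSMB7 subunits. Interferons induce PSMB8, PSMB9 and PSMB10, which replace PSMB5, PSMB6 and PSMB7, in that order, in newly built particles, and such immunoproteasomes cut more of the peptides that fit MHC class I molecules. PSME1 and PSME2 form the activator PA28, a cap that binds the end of the barrel. ERAP1 and ERAP2 trim peptides from the amino end in the ER before they are loaded onto MHC class I molecules. Leukocytes carry the immunoproteasome constitutively, while most epithelial and glial cells carry little of it unless stimulated.

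Libraries held between 17814142 and 28097179 counts. Values for single genes are library-size-scaled counts (CPM), with TMM factors within a line, and levels are compared between genes only as FPKM, the authors' values per transcript length and depth. In these bulk libraries fewer expressing cells and less RNA per cell cannot be told apart. GSTO1 was at 15.8 ± 1.22 CPM in KO and 63.3 ± 1.74 CPM in WT HCT116 cells, and at 24.7 ± 0.772 CPM in KO and 134 ± 14.9 CPM in WT U-87 MG cells (SD, n = 3 each), so it was lower in all 6 KO libraries than in any WT library of its line. WT replicate 3 of U-87 MG stood apart from its group. The chi-square of its counts, divided by the degrees of freedom, was 8.62 and 9.77 against the other WT libraries, which gave 2.42 between them. Replicate 3 also stood apart in both HCT116 groups, though by less. In KO it gave 5.82 and 5.65 against the other libraries, which gave 1.82 between them. In WT HCT116 these values were 3.77 and 3.58, against 1.49. Of 10 leukocyte markers 4 were at 0 in KO and 5 at 0 in WT HCT116 libraries, and PTPRC, the pan-leukocyte marker CD45, averaged 0.00597 FPKM in KO and 0 FPKM in WT. Their summed level was 7.61 to 11.2 FPKM in KO and 2.32 to 3.11 FPKM in WT HCT116 libraries, most of it CD33 (8.66 ± 1.65 FPKM in KO and 2.42 ± 0.323 FPKM in WT, SD, n = 3 each). In U-87 MG the same sum was 1.31 to 1.63 FPKM in KO and 1.90 to 2.32 FPKM in WT libraries. Epithelial markers summed to 1783 to 1971 FPKM in KO and 2011 to 2128 FPKM in WT HCT116 libraries. Of these, KRT8, KRT18 and KRT19 averaged lower in KO, EPCAM hardly differed, and CDH1 was higher (16.0 FPKM in KO and 9.17 FPKM in WT). Glial and mesenchymal markers in HCT116 summed to 175 to 179.7 FPKM in KO and 103 to 107 FPKM in WT. Most of that sum was CD44 (170 ± 2.65 FPKM in KO and 99.8 ± 1.84 FPKM in WT, SD, n = 3 each). SPARC and FN1 also averaged higher in KO, and VIM lower (1.54 FPKM in KO and 2.16 FPKM in WT). The part of these marker differences in the results was not tested. In U-87 MG, mesenchymal and glial markers summed to 6362 to 6436 FPKM in KO and 6718 to 7537 FPKM in WT libraries. VIM (3116 FPKM in KO and 3980 FPKM in WT) and TNC (141 FPKM in KO and 240 FPKM in WT) averaged lower in KO. FN1 (2297 FPKM in KO and 2037 FPKM in WT), CD44, SPARC and CDH2 averaged higher. The glial marker GFAP was near 0 (0.0162 FPKM in KO and 0.0164 FPKM in WT). The part of these differences in the results was not tested either.

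The start regions of these genes are shown because 4 of the 5 genes called higher in KO HCT116 cells hold the same short sequence there. PSMB8 and PSMB10, which were not called, hold it as well, so it does not set the called genes apart. RefSeq windows on GRCh38.p14, each from 250 bases before to 50 bases after an annotated start site, were held for 8 of the 10 genes, all but PSMB6 and PSMB7. They were searched on both strands for GAAA followed by any 2 bases and again GAAA, the core of the interferon-stimulated response element, the sequence that interferon-activated factors recognise. It was present in a window of 6 of these 8 genes, against 3.57% of all 35116 windows and 4.38% of all 27305 genes in the table. These genes were chosen with their interferon response known, so the share is a description. Below, 25 bases on either side of each match are given 5′ to 3′ on the strand of the gene, and capitals mark the match, which reads as TTTC on both sides where it lies on the opposite strand. TAP1, the neighbour of PSMB9, is added.
PSMB8 (chr6:32844017-32844076, minus strand): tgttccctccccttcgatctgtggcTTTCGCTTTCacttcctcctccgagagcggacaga
PSMB10 (chr16:67936837-67936896, minus strand): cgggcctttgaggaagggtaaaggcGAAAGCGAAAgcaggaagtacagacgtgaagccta
PSME1 (chr14:24136174-24136233, plus strand): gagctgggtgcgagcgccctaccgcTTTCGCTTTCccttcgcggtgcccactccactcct
PSME2 (chr14:24146604-24146663, minus strand): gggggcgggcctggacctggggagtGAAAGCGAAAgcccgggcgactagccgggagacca
ERAP1 (chr5:96807909-96807968, minus strand): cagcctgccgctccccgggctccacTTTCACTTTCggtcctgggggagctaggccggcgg
ERAP2 (chr5:96876445-96876504, plus strand): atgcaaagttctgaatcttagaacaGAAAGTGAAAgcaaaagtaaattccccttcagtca
TAP1 (chr6:32853798-32853863, minus strand): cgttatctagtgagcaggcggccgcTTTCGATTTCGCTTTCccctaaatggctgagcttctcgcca
The match began 4 bases before the downstream of 2 listed start sites in PSMB8 and 30 bases before the downstream of 2 in ERAP2. It began 21 bases before the start in PSMB10 and 28 before it in PSME2, and lay just inside the transcript in PSME1. In ERAP1 it lay just inside the transcript from the downstream of 2 listed start sites, and the window of the other held none. The window of PSMB9 held no match. PSMB9 is transcribed away from TAP1, which encodes a subunit of the peptide transporter of the ER and starts 488 bases away on the opposite strand. TAP1 had a pair of overlapping matches between these starts, the nearer of them 354 bases before the start of PSMB9. A second motif, the gamma-activated site TTCNNNGAA, was in 7.66% of all windows and occurred once in PSMB8, at 2 places in PSMB5 and once in TAP1. The site reads the same on both strands and was counted once.

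The lines started from different levels of the inducible genes. In WT HCT116 cells PSMB8 averaged 0.189 ± 0.0642 FPKM, against 33.6 ± 3.15 FPKM in WT U-87 MG cells (SD, n = 3 each), with only 5, 11 and 8 counts in the WT HCT116 libraries. ERAP2 averaged 0.402 ± 0.0214 FPKM in WT HCT116 and 22.2 ± 1.67 FPKM in WT U-87 MG cells. PSMB9 averaged 3.61 ± 0.714 and PSMB10 15.8 ± 1.28 FPKM in WT HCT116 cells, against 16.4 ± 2.07 FPKM for PSMB9 and 31.4 ± 5.87 FPKM for PSMB10 in WT U-87 MG cells. The constitutive subunits were high in both lines, PSMB6 at 226 ± 5.61 FPKM in WT HCT116 and 233 ± 12.0 FPKM in WT U-87 MG cells. 

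**Figure D1:**
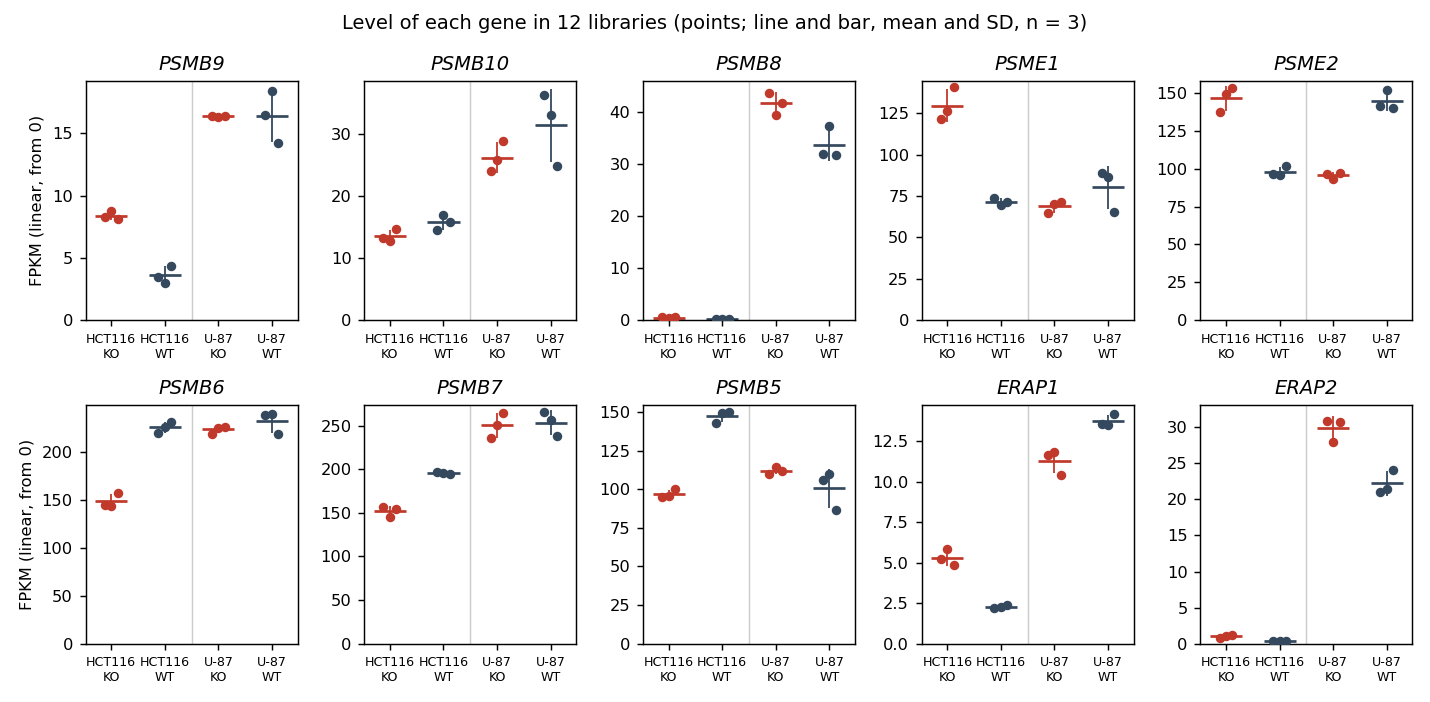
FPKM (linear axes from 0) of 10 genes in 3 KO and 3 WT libraries of HCT116 and of U-87 MG, with points for libraries and lines and bars for the mean and SD (n = 3). PSMB8 is close to 0 in HCT116 and between 31.6 and 43.7 FPKM in U-87 MG, and PSMB5, PSMB6 and PSMB7 are lower in all KO than in all WT HCT116 libraries.

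Ordered by mean FPKM, WT HCT116 cells had PSMB6, PSMB7, PSMB5, PSME2, PSME1, PSMB10, PSMB9, ERAP1, ERAP2 and PSMB8, and no neighbours in this order overlapped. The order in WT U-87 MG cells was PSMB7, PSMB6, PSME2, PSMB5, PSME1, PSMB8, PSMB10, ERAP2, PSMB9 and ERAP1, with overlap between PSMB7 and PSMB6, between PSMB5 and PSME1 and between PSMB8 and PSMB10. In KO HCT116 cells PSMB7, PSMB6, PSME2 and PSME1 led the order and overlapped from each to the next, and PSMB5 came after them at 96.9 ± 2.76 FPKM (SD, n = 3). KO U-87 MG cells had PSMB7, PSMB6, PSMB5, PSME2, PSME1, PSMB8, ERAP2, PSMB10, PSMB9 and ERAP1, and only ERAP2 and PSMB10 overlapped among neighbours. Set between the lines with edgeR, 6 of the 10 genes were called lower in WT HCT116 than in WT U-87 MG cells and none higher, where 55.2% of 15613 tested genes were called, 28.3% lower and 26.9% higher. To be called, a gene had to pass 3 limits. These were an adjusted p below 0.05, a change of more than 1.5-fold and more than 0.5 FPKM on average in a line. PSMB8, at 0.319 FPKM on average in HCT116, met the last limit only through U-87 MG, where it is high. Its call thus lends the count of 6 no weight. Taken as HCT116 minus U-87 MG, the log2 difference came to -7.08 for PSMB8 (SE 0.15, edgeR adjusted p = 1.36e-28), -5.61 for ERAP2 (SE 0.08, edgeR adjusted p = 1.78e-33) and -2.75 for ERAP1 (SE 0.07, edgeR adjusted p = 3.99e-26). It was -2.33 for PSMB9, -0.87 for PSMB10 and -0.66 for PSME2. PSME2 lost its call with limma on both FPKM scales, at -0.56. HCT116 was read in single and U-87 MG in paired reads, so line and sequencing layout cannot be told apart in these differences.

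The comparison of GSTO1 KO with WT HCT116 cells asked how the levels of these genes differ between them. PSMB9, both subunits of PA28 and both ER aminopeptidases rose, by 1.55-fold to 2.46-fold. PSMB10, the remaining inducible subunit with a sizeable level, did not rise, and the constitutive subunits were lower in KO cells by less than the 1.5-fold needed for a call. All 10 genes were tested, 5 were called higher and none lower, and over all 14068 genes tested 11.9% were called, 7.82% higher and 4.07% lower. The median log2 fold change was 0.77 over the 10 genes and 0.01 over all genes tested. KO and WT libraries did not overlap in CPM for any of the 10 genes, which held for 61.6% of all genes tested, and all 10 passed the adjusted p, as did 57.3% of all genes. The median and these counts include PSMB8, which passed the filter on low counts through its KO libraries alone, so its higher value in KO lends them no weight.

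PSMB9, which takes the place of PSMB6 in the immunoproteasome, was at 9.26, 9.74 and 8.99 CPM in KO and at 3.66, 3.20 and 4.58 CPM in WT HCT116 libraries. Every KO library was far above the WT libraries, and the fold was 2.46 (log2 fold change 1.30, SE 0.13, edgeR adjusted p = 6.12e-08). TAP1, its divergent neighbour, was at 73.6, 70.3 and 73.7 CPM in KO and 38.4, 40.4 and 43.4 CPM in WT libraries (log2 fold change 0.83, SE 0.06, edgeR adjusted p = 3.68e-10). PSMB8, which lies on the other side of TAP1, had 17, 12 and 21 counts in KO and 5, 11 and 8 counts in WT libraries, or 0.949, 0.632 and 0.878 CPM in KO and 0.206, 0.424 and 0.377 CPM in WT. Its log2 fold change of 1.28 (SE 0.38, 95% interval 0.47 to 2.08, edgeR adjusted p = 0.00782) was not called, since its mean of 0.319 FPKM over both groups is under the minimum. It passed the filter on low counts through the 3 KO libraries alone, with 0 WT libraries above the 0.443 CPM required. On GRCh38, GENCODE release 44 places PSMB8 at chr6:32840717-32844679 on the minus strand, TAP1 at chr6:32845209-32853816 on the minus strand and PSMB9 at chr6:32844136-32859851 on the plus strand, an extent that takes in TAP1. PSMB8-AS1 and PSMB9, both on the opposite strand, cover 17.3% of the exon bases of PSMB8, and the labels do not state whether the counting used strand. The part of reads from these genes in the PSMB8 counts was not tested. PSMB8-AS1 held 0.144 ± 0.125 CPM in KO and 0.283 ± 0.253 CPM in WT HCT116 libraries (SD, n = 3 each).

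PSMB10, which takes the place of PSMB7, was lower in KO cells. It was at 16.5, 16.1 and 19.1 CPM in KO and at 20.1, 23.0 and 20.99 CPM in WT HCT116 libraries. The CPM values of KO and WT did not overlap while the FPKM values did, and the log2 fold change was -0.30 (SE 0.09, edgeR adjusted p = 0.00479), below the 1.5-fold needed. The 95% interval was -0.48 to -0.13. The start region of PSMB10 holds the sequence match shown above, that of PSMB9 does not. GENCODE places PSMB10 at chr16:67934506-67936864 on the minus strand.

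PSME1 and PSME2, the subunits of the activator cap, both rose. PSME1 lies at chr14:24136163-24138967 on the plus strand and PSME2 at chr14:24143362-24147570 on the minus strand. PSME1 was at 130, 134 and 146 CPM in KO and 74.5, 71.4 and 73.7 CPM in WT HCT116 libraries (log2 fold change 0.90, SE 0.05, edgeR adjusted p = 1.58e-11). PSME2 was at 123, 131 and 134 CPM in KO and 82.3, 81.9 and 85.8 CPM in WT libraries (log2 fold change 0.64, SE 0.05, edgeR adjusted p = 1.33e-09). KO and WT were well apart for both genes, but the fold of PSME2 was only 1.55 and its call was lost with limma on log2(FPKM + 1) and on log2(FPKM + 0.1), at 0.58 on either log2 scale. RNF31 covers part of PSME2 on the opposite strand, and such overlap takes in 6.03% of the exon bases of PSME2.

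ERAP1, which trims peptides to the length that MHC class I molecules bind, was at 32.6, 35.7 and 28.9 CPM in KO and 13.01, 13.3 and 13.8 CPM in WT HCT116 libraries (log2 fold change 1.27, SE 0.08, edgeR adjusted p = 1.41e-10). Its neighbour ERAP2, a related trimming enzyme, was at 5.86, 7.21 and 7.11 CPM in KO and 2.55, 2.93 and 3.02 CPM in WT libraries (log2 fold change 1.25, SE 0.14, edgeR adjusted p = 3.44e-07). ERAP1 lies at chr5:96760810-96808100 on the minus strand and ERAP2 at chr5:96875986-96919703 on the plus strand. The folds were 2.42 for ERAP1 and 2.38 for ERAP2, at different levels, since ERAP2 averaged only 1.03 ± 0.218 FPKM in KO and 0.402 ± 0.0214 FPKM in WT cells (SD, n = 3 each). On log2(FPKM + 1), which understates changes of low genes, the log2 fold change of ERAP2 was 0.53 and not called.

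The constitutive catalytic subunits were all lower in KO HCT116 cells. They lie on different chromosomes, PSMB5 at chr14:23016543-23035230 on the minus strand, PSMB6 at chr17:4796144-4798502 on the plus strand and PSMB7 at chr9:124353465-124415444 on the minus strand. PSMB5 was at 124, 123 and 129 CPM in KO and 177, 182 and 184 CPM in WT libraries, at 69.4% of the WT level (log2 fold change -0.53, SE 0.04, edgeR adjusted p = 3.01e-09). PSMB6 was at 127, 126 and 137 CPM in KO and 182, 189 and 195 CPM in WT libraries, at 68.9% of the WT level (log2 fold change -0.54, SE 0.05, edgeR adjusted p = 7.08e-09). PSMB7 was at 159, 145 and 156 CPM in KO and 188, 188 and 192 CPM in WT libraries (log2 fold change -0.30, SE 0.04, edgeR adjusted p = 9.11e-06). No KO library reached a WT library for any of these genes, and all 3 passed the adjusted p. PSMB5 and PSMB6 were just short of the 1.5-fold limit in counts and were called lower with limma on log2(FPKM + 1), both at -0.60.

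**Figure D2:**
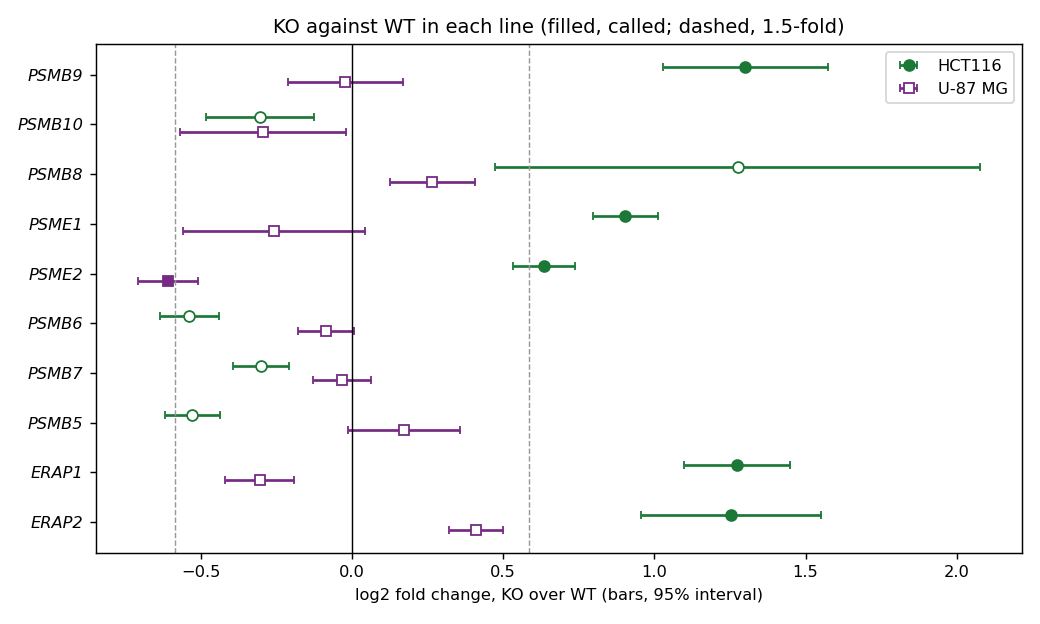
Log2 fold change of KO over WT (horizontal axis) for 10 genes in HCT116 (circles) and U-87 MG (squares), with 95% intervals from edgeR, filled where called and with dashed lines at 1.5-fold. In HCT116 PSMB9, PSME1, PSME2, ERAP1 and ERAP2 are called higher, and in U-87 MG PSME2 alone is called, at -0.61.

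The ratio of each inducible subunit to its counterpart was taken within each library, which needs no scaling between libraries. PSMB9 was at 5.69, 6.09 and 5.15% of PSMB6 in KO and at 1.58, 1.31 and 1.89% in WT HCT116 libraries, a 3.57-fold higher ratio. PSMB8 was at 0.566, 0.313 and 0.511% of PSMB5 in KO and at 0.0856, 0.167 and 0.130% in WT libraries, a 3.65-fold higher ratio at the few counts given above. With 1 added to each FPKM, the log2 difference of this ratio was 0.88 in place of 1.87. PSMB10 was at 8.39, 8.76 and 9.50% of PSMB7 in KO and at 7.36, 8.69 and 8.14% in WT libraries, which overlap. The first 2 ratios separated KO from WT completely, with an exact permutation p = 0.1, two-sided, the smallest that 3 against 3 libraries allow. For PSMB8 to PSMB5 this lends no weight, since PSMB8 was under the filter on low counts in all WT libraries. The last ratio had an exact permutation p = 0.2. With ratios of counts in place of FPKM, the log2 difference of PSMB10 to PSMB7 was -0.0089 in place of 0.14.

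In U-87 MG the same ratios overlapped between KO and WT for all 3 pairs. For PSMB8 to PSMB5 and PSMB10 to PSMB7 this was only through WT replicate 3, and for PSMB9 to PSMB6 only through WT replicate 2. Without WT replicate 3, the log2 difference of PSMB10 to PSMB7 was -0.34 in place of -0.23. That of PSMB8 to PSMB5 was then 0.21 in place of 0.15. Without WT replicate 2, that of PSMB9 to PSMB6 was 0.13 in place of 0.06. PSMB8 was at 37.2 ± 2.67% of PSMB5 in KO and 33.6 ± 3.21% in WT libraries, PSMB9 at 7.31 ± 0.132% of PSMB6 in KO and 7.01 ± 0.580% in WT, and PSMB10 at 10.5 ± 0.405% of PSMB7 in KO and 12.3 ± 1.66% in WT (SD, n = 3 each). Their exact permutation p, two-sided, were 0.2, 0.5 and 0.2. Over the 6 tests in both lines the Benjamini-Hochberg adjusted p were 0.24 to 0.5.

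**Figure D3:**
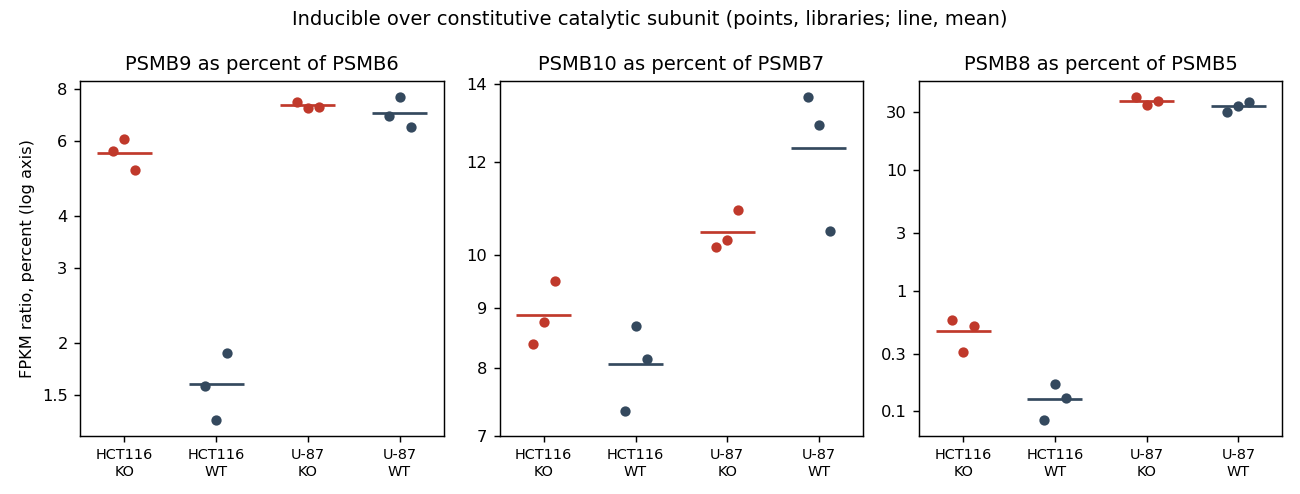
FPKM of each inducible subunit as percent of its constitutive counterpart (log axes) in 3 KO and 3 WT libraries of HCT116 and of U-87 MG, with points for libraries and lines for means. PSMB9 as percent of PSMB6 averages 5.64 in KO and 1.59 in WT HCT116 cells and 7.31 in KO and 7.01 in WT U-87 MG cells.

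The rest of the proteasome in HCT116 was lower in KO cells, mostly by less than 1.5-fold. Over all 14068 genes tested 49.2% had negative log2 fold changes, and 28.1% were lower at the adjusted p. All 11 other subunits of the 20S core, the barrel itself, had negative log2 fold changes at an adjusted p under 0.05, with a median of -0.42, and PSMB3 was called lower (102.9 ± 1.50 CPM in KO and 155 ± 2.03 CPM in WT, log2 fold change -0.59, edgeR adjusted p = 6.14e-10). Of 21 subunits of the 19S particle, which recognises and unfolds ubiquitinated proteins, 21 had negative values and 19 passed the adjusted p, with a median of -0.49. PSMD11 (-0.67) and PSMD13 (-0.61), both of the lid of that particle, were called lower. PSMB3 lost its call without KO replicate 2 (-0.58) or without WT replicate 1 (-0.58). Assembly factors and other activators had 8 of 8 negative values, 6 at the adjusted p and none called, with a median of -0.30. Among them were POMP, the maturation factor of the barrel (-0.39, edgeR adjusted p = 1.16e-06), and PSME3, a nuclear activator (-0.38, edgeR adjusted p = 1.22e-07).

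Genes that act beside the immunoproteasome differed by list in HCT116. Of 7 tested genes of peptide transport and MHC class I loading, TAP1, TAP2, TAPBP and B2M were called higher and none lower. B2M, the invariant chain of MHC class I molecules, had a log2 fold change of 0.96 and TAP2, the partner of TAP1, of 0.63. TAPBP, the tapasin that bridges transporter and MHC class I, had 0.60 and lost its call with no filter on low counts (0.58), without KO replicate 3 (0.57) and on either FPKM scale (0.54 and 0.55). TAP2 lost its call on the FPKM scales as well (0.50 and 0.52). The ER chaperones of that list were not called, CALR at -0.41 and CANX at -0.02. Of 7 cytosolic and endosomal peptidases none was called, with log2 fold changes between -0.41 and 0.34. Of 7 transcription factors that act on these genes 6 were called higher, among them IRF9 (2.12) and STAT2 (1.00), which act in interferon signalling, and NLRC5 (1.59), which drives transcription of MHC class I genes. The one not called was NFE2L1, a factor that drives constitutive proteasome genes (403 ± 14.9 CPM in KO and 372 ± 8.10 CPM in WT, log2 fold change 0.12, SE 0.04, edgeR adjusted p = 0.0149).

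**Figure D4:**
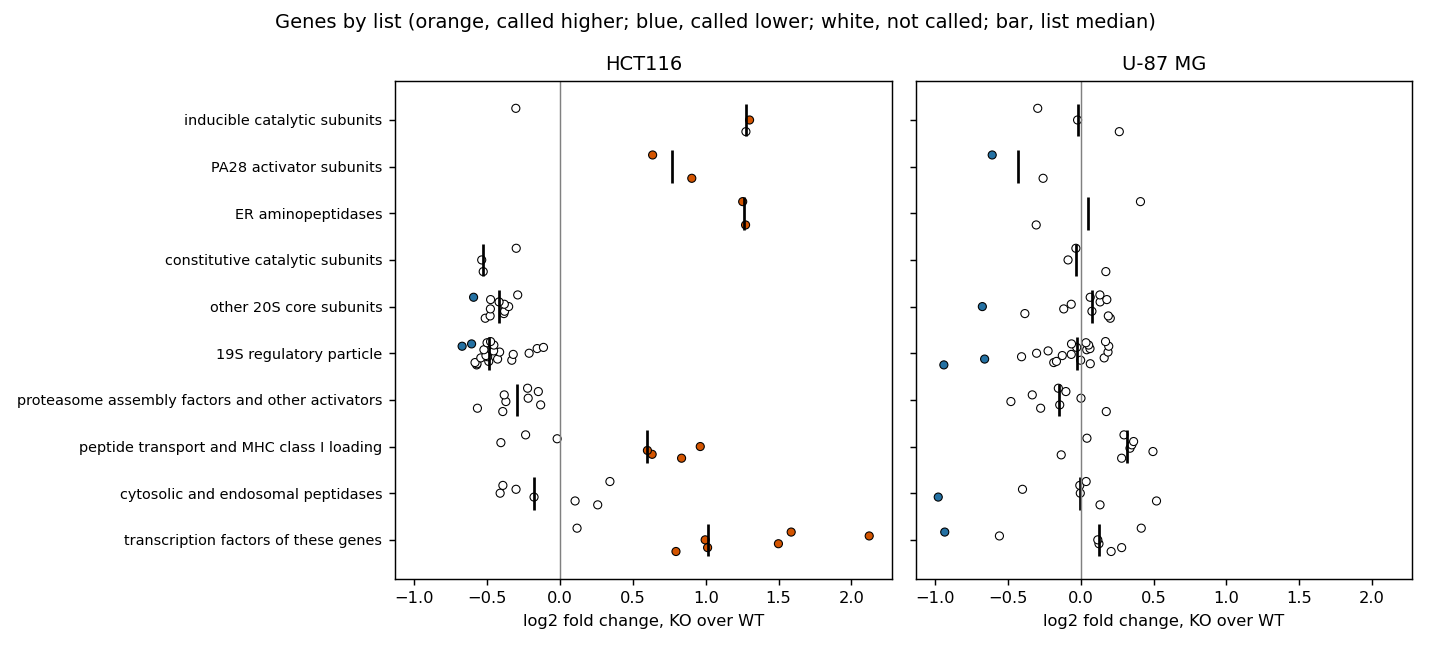
Log2 fold change of KO over WT for each tested gene (points) by list, in HCT116 and in U-87 MG, with bars at the list medians. In HCT116 the core and 19S lists lie to the left of 0 with medians of -0.42 and -0.49, and in U-87 MG their medians are 0.08 and -0.03.

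The comparison of KO with WT U-87 MG cells gave another picture. PSME2 alone of the 10 genes was called, and it fell. PSMB8 and ERAP2 were higher and ERAP1 lower in KO cells, each at the adjusted p but under 1.5-fold. With PSME2, 4 of the 10 genes passed the adjusted p, against 59.3% of all genes tested. All 10 genes were tested, 1 was called lower and none higher, while over all 13741 genes tested 16.2% were called, 8.15% lower and 8.06% higher, so that the count is near the background. The median log2 fold change of the 10 genes was -0.06.

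PSME2 was at 77.1, 73.8 and 78.5 CPM in KO and at 115, 121 and 113 CPM in WT U-87 MG libraries. The groups were well apart, and the log2 fold change was -0.61 (SE 0.05, edgeR adjusted p = 2.73e-10). Its fold was just past the limit, and the call was lost without KO replicate 2 or without WT replicate 2, at -0.58 in both cases. PSME1 was at 60.6, 64.2 and 66.4 CPM in KO and at 83.9, 82.8 and 61.4 CPM in WT libraries, where WT replicate 3 lay among the KO libraries. Its log2 fold change was -0.26 (SE 0.12, edgeR adjusted p = 0.121), and without WT replicate 3 it was -0.39 (edgeR adjusted p = 1.47e-11).

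PSMB8 was at 51.8, 45.96 and 49.8 CPM in KO and at 39.1, 44.99 and 38.6 CPM in WT U-87 MG libraries. The lowest KO library and the highest WT library were close to each other without overlap, and the log2 fold change was 0.27 (SE 0.07, edgeR adjusted p = 0.0019). PSMB9 was at 16.7, 16.7 and 16.4 CPM in KO and at 17.04, 18.8 and 14.5 CPM in WT libraries, with KO inside the range of WT (log2 fold change -0.02, 95% interval -0.21 to 0.17, edgeR adjusted p = 0.854). PSMB10 was at 27.0, 27.5 and 30.1 CPM in KO and at 39.5, 36.7 and 27.3 CPM in WT libraries (log2 fold change -0.30, SE 0.12, edgeR adjusted p = 0.0615). WT replicate 3 again lay with the KO libraries, and without it PSMB10 was at -0.44 (edgeR adjusted p = 1.55e-08).

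ERAP2 was at 169, 159 and 160.3 CPM in KO and at 125, 119 and 123 CPM in WT U-87 MG libraries, with all KO libraries above all WT libraries (log2 fold change 0.41, SE 0.04, edgeR adjusted p = 3.82e-08). ERAP1 was at 67.0, 67.2 and 59.6 CPM in KO and at 78.4, 79.4 and 81.8 CPM in WT libraries, all KO below all WT (log2 fold change -0.31, SE 0.05, edgeR adjusted p = 4.71e-05). The neighbouring aminopeptidase genes thus differed from WT in opposite directions, by 1.33-fold for ERAP2 and to 80.9% of the WT level for ERAP1. PSMB5 had a log2 fold change of 0.17 (95% interval -0.01 to 0.36), PSMB6 of -0.09 (95% interval -0.18 to 0.01) and PSMB7 of -0.03 (95% interval -0.13 to 0.06). Their edgeR adjusted p were 0.0975, 0.0965 and 0.559. In WT libraries PSMB5 was at 124, 126 and 99.3 CPM, the lowest in WT replicate 3. Without single libraries its log2 fold change ranged from 0.067 to 0.23.

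Among the other proteasome genes of U-87 MG, PSMA6 of the barrel (-0.68) and PSMC1 (-0.94) and PSMC6 (-0.66), ATPases of the 19S particle, were called lower. These 3 genes and PSME2 lie on chromosome 14. Of the 48 genes of the core with its inducible subunits, the 19S particle, PA28 and the assembly lists, 7 lie on chromosome 14 and 4 of them were called lower, and none of the 41 on other chromosomes was called in either direction. This grouping was made after the values were seen. The median log2 fold change of all 430 tested genes of chromosome 14 was -0.47 in U-87 MG, and 35.6% of them were called lower, against 8.15% over all genes tested. Within the stretch from 24 to 25 Mb, which holds PSME1 and PSME2, the median was -0.61 over 27 genes, and from 20 to 24 Mb, which holds PSMB5, it was -0.24 over 51 genes. In HCT116 the median of chromosome 14 was 0.02 over 427 genes. The part of this chromosome-wide shift in the values of PSME2 and PSME1 was not tested.

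**Figure D5:**
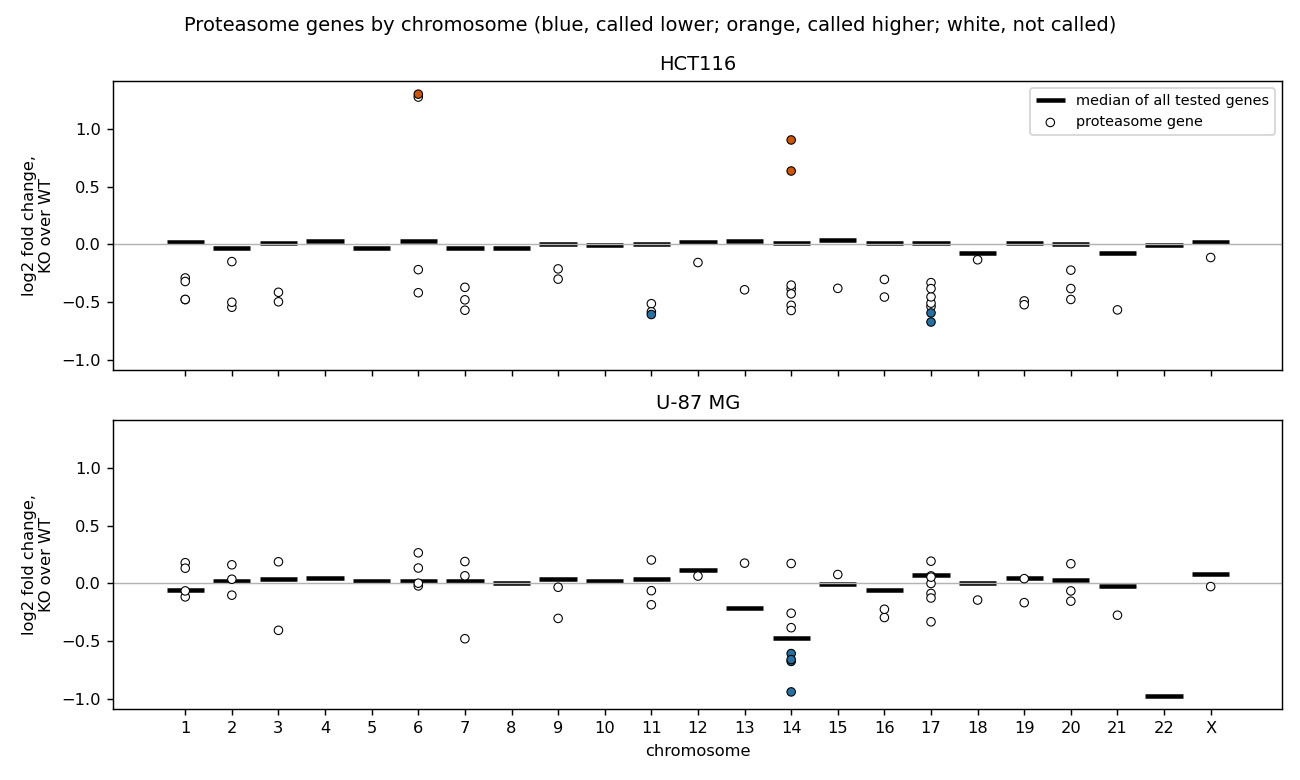
Log2 fold change of KO over WT for 48 proteasome genes (points) by chromosome, with black bars for the median of all tested genes on that chromosome, in HCT116 (upper) and U-87 MG (lower). The 4 genes called lower in U-87 MG are on chromosome 14, whose median is -0.47, and the 3 called lower in HCT116 are on other chromosomes.

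Beside the proteasome in U-87 MG, none of 8 genes of peptide transport and loading was called, with a median of 0.32 and B2M at 0.35 (edgeR adjusted p = 4.36e-07). Without WT replicate 3, TAPBP was called higher, at 0.63 in place of 0.50. TPP2, a cytosolic peptidase, was called lower (-0.98) and lies on chromosome 13, where the median of all tested genes was -0.22. Also called lower was NLRC5 among the transcription factors (37.4 ± 1.93 CPM in KO and 71.4 ± 2.68 CPM in WT, log2 fold change -0.93). IRF9, which lies on chromosome 14 between 24 and 25 Mb, was at -0.56 and not called. Without single libraries, IRF9 ranged from -0.63 to -0.50, and it was called lower at -0.63.

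The difference between the lines was tested as the interaction in 1 fit of all 12 libraries. The log2 fold changes differed between HCT116 and U-87 MG for 7 of the 10 genes, 6 with a higher value in HCT116 and PSMB5 with a lower one, where 16.9% of 15613 genes tested were called, 9.66% higher and 7.24% lower. ERAP1 differed most among them, by 1.59 (HCT116 minus U-87 MG, SE 0.10, edgeR adjusted p = 1.5e-14), followed by PSMB9 at 1.33 (SE 0.16), PSME2 at 1.25 (SE 0.07) and PSME1 at 1.17 (SE 0.13). PSMB5 differed by -0.69 (SE 0.09, edgeR adjusted p = 3.28e-07), and by -0.77 to -0.61 without single libraries. PSMB6 at -0.44 and PSMB7 at -0.26 passed the adjusted p without the 1.5-fold. For PSMB10 the difference was 0.00 (95% interval -0.33 to 0.33). PSMB8 met the FPKM limit through U-87 MG alone, since it averaged 0.319 FPKM in HCT116. The difference of PSMB8 (1.02, SE 0.35, edgeR adjusted p = 0.0197) rests on the few counts of HCT116, and its call was lost without KO replicate 1 (0.93), KO replicate 3 (0.95) or WT replicate 1 (0.76) of HCT116. It was also lost with limma on log2(FPKM + 0.1), at 0.61, and the sign turned on log2(FPKM + 1), at -0.020. ERAP2 (0.86) was at 0.11 and not called on log2(FPKM + 1), so that 5 genes were called there and 6 on log2(FPKM + 0.1). PSME1, PSME2 and PSMB5 lie on chromosome 14, and the part of its shift in U-87 MG in their differences was not tested.

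The genes most like the inducible subunits over the 12 libraries were sought by the smallest root mean square difference of log2 CPM after centring each gene, among 10538 genes. Here CPM was scaled by library totals without TMM factors, and 0.5 was added. That is of the size of the PSMB8 values in HCT116 (0.206 to 0.949 CPM), so it narrows the profile of PSMB8. For PSMB8 these were LRP1 (0.217), CSF1 (0.217) and C14orf132 (0.22), for PSMB9 NPR2 (0.138), SMIM14 (0.18) and CRYM (0.188), and for PSMB10 C14orf2 (0.0906), ERCC8 (0.0936) and ILVBL (0.0968). The profile of PSMB8 is dominated by the gap between the lines.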

How the data were processed

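Counts per gene symbol are whole reads that the authors made with featureCounts 1.6.1 after alignment to GRCh38 with STAR 2.5.2, per the submitters' processing notes. The deposited FPKM values come from Cufflinks 2.2.1, and the study's design text names the refGene annotation. The labels state neither the strand setting nor the handling of reads with several alignments. Per the labels' protocols, stranded mRNA libraries (TruSeq, RNA integrity number of at least 8) were sequenced at 50 bp, with single reads for the HCT116 and paired reads for the U-87 MG libraries.

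The deposited counts of all genes were tested with edgeR 4.0.16 in R 4.3.3 (filterByExpr with a minimum count of 10, TMM, glmQLFit with robust estimation, quasi-likelihood F-test, Benjamini-Hochberg adjustment), 6 libraries per line for KO against WT and 12 for the contrasts between lines. Calls used the study's limits, an adjusted p below 0.05, more than 1.5-fold and more than 0.5 FPKM on average. In the contrasts between lines, the FPKM limit had to be met in only 1 line. Alternatives were DESeq2 1.42.0 and its size factors, no filter, limma 3.58.1 on log2(FPKM + 1) and log2(FPKM + 0.1), a replicate block and leaving out each library. The scripts were tested on simulated counts. No label says that replicates are separate cultures, so p-values measure only the spread among these libraries, and this may be technical. Genes and lists were chosen with earlier results of these data known. All 10 genes are named, with up to 4 called genes with the smallest adjusted p per other list and line, TAP1, GSTO1 and the 3 genes most like each inducible subunit. Others (POMP, PSME3, CALR, CANX, NFE2L1 and, in U-87 MG, B2M and IRF9) were named after their values were seen. One gene that the rule would name is not reported here. Positions are from GENCODE release 44 on GRCh38, sequences from RefSeq.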

Additional observations from a re-analysis of the deposited data

Results flagged for a closer look

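The difference between KO and WT cells was itself different between the lines for 7 of the 10 genes by the test of the interaction, where 16.9% of all genes tested were called, given here as HCT116 log2 fold change minus U-87 MG log2 fold change. It was 1.59 for ERAP1, 1.33 for PSMB9, 1.25 for PSME2, 1.17 for PSME1, 1.02 for PSMB8, 0.86 for ERAP2 and -0.69 for PSMB5 (edgeR adjusted p between 9.88e-16 and 0.0197). On log2(FPKM + 1), ERAP2 was at 0.11 and PSMB8 at -0.020, neither called, and PSMB8 also lost its call when any of 3 single HCT116 libraries was left out. PSMB8 met the FPKM limit through U-87 MG alone, with a mean of 0.319 FPKM in HCT116. PSME1, PSME2 and PSMB5 lie on chromosome 14, whose genes had a median of -0.47 in U-87 MG, and the part of that shift was not tested. For PSME2 both lines were called, higher in KO HCT116 cells and lower in KO U-87 MG cells. In ERAP1 the 3 KO libraries were above all WT libraries in HCT116 and below all WT libraries in U-87 MG.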

How the results depend on the processing

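The count of the 10 genes called was 5 in HCT116 under every count-based setting, 5 with limma on log2(FPKM + 1) and 6 on log2(FPKM + 0.1), where PSMB5 and PSMB6 were called lower and PSME2 was not called. In U-87 MG it ranged from 0 to 1 when libraries were left out. The number of all genes called in HCT116 was 1672 and became 1047 on log2(FPKM + 1), 555 higher and 492 lower, against 1100 higher and 572 lower in counts, and 938 higher and 737 lower on log2(FPKM + 0.1). Leaving out 1 library gave 1671 to 1753 genes in HCT116 and 2209 to 2282 in U-87 MG. The values that turned sign were near 0 or rested on few counts. In U-87 MG, PSMB9 (-0.02) was at 0.0073 on log2(FPKM + 1) and 0.0081 on log2(FPKM + 0.1). Without single libraries, PSMB9 ranged from -0.12 to 0.067, PSMB7 from -0.076 to 0.0017 and PSMB3 from -0.015 to 0.13. For the difference between lines, PSMB10 (0.00) was at -0.022 with no filter, -0.0030 with DESeq2, -0.012 with the replicate block and from -0.10 to 0.12 without single libraries, TAPBP ranged from -0.042 to 0.19, and PSMB8 was at -0.020 on log2(FPKM + 1). The log2 difference of the ratio of PSMB10 to PSMB7 in HCT116 was -0.0089 with counts. The cause was not tested. Deviations of KO and WT libraries of the same number had correlations of 0.07, 0.06 and 0.23 in HCT116 and 0.03, 0.00 and -0.01 in U-87 MG. Between different numbers they ranged from -0.15 to 0.10 in HCT116 and from -0.03 to 0.02 in U-87 MG. KO replicate 3 of HCT116 was at -0.12 and -0.14 with WT replicates 1 and 2, so KO and WT replicate 3 deviated together there. Whether they share a batch was not tested. The labels do not say that a number marks a batch, so the numbers were taken as pairs only in the replicate block. With the replicate block the members called were 5 in HCT116 and 1 in U-87 MG, and 1680 and 2221 genes in all. PSMB8 in HCT116, at 5 to 21 counts a library, is limited by depth.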
